A study of Mus musculus with 30 samples.

Results

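The regions described here are the H3K27ac peaks that were listed in cells kept in estradiol (E2) and overlapped by no peak in 4 other H3K27ac lists. They are called E2-only peaks below. The rule compared the E2 list with the lists made after 24, 40 and 72 h without E2 followed by its return, and after 120 h without E2, and took every E2 peak that shared no base with any of them. It found 4122 of 27876 E2 peaks, or 14.8% (95% Clopper-Pearson interval 14.4 to 15.2) of the list. The peaks were thus chosen by their presence or absence in 5 H3K27ac lists, and counts over those lists describe them without testing anything. The list made after 56 h without E2 was not used by the rule.

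All lists came from cultured mouse cells of strain C57BL/6 called ER-Hoxa9-Lys-GFP, studied by chromatin immunoprecipitation with sequencing (ChIP-seq) around their commitment to myeloid differentiation. Cells were deprived of E2 for 24, 40, 56 or 72 h and then given it back for 96, 80, 64 or 48 h, deprived for 120 h with no return, or kept in E2 throughout, all in medium with stem cell factor. Every group thus carried the ER-Hoxa9 fusion and grew with stem cell factor, and a longer withdrawal came with a shorter time back in E2. Each mark had 1 library per condition. The differences therefore have no replicate check, and no p-value is given. Intervals are at 95%, by the Clopper-Pearson method for a share and the Newcombe method for a difference, and cover peak-counting error only. Neighbouring peaks are not independent.

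HOXA9 is a homeodomain transcription factor that keeps blood progenitors immature, and joining it to a part of the estrogen receptor (ER) that binds hormone makes its activity depend on E2. H3K27ac is the acetyl mark of active promoters and enhancers. H3K27me3, which Polycomb repressive complex 2 places on the same lysine, marks silenced genes, and 1 histone tail cannot carry both marks on that lysine.

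E2-only peaks were narrow. Their median width was 197 bp (interval of the median 194 to 200), against 301 bp for the 2413 peaks listed at 24 and 40 h but not at 72 and 120 h, 444 bp for the 10792 peaks found in all 5 lists, and 337 bp for all 23754 other E2 peaks. The narrowest had 146 bp, the shortest width in any list, and the widest 1147 bp. Of the E2-only peaks, 51.9% were at most 200 bp wide and 2.55% exceeded 500 bp, against 18.8% and 26.4% of the other E2 peaks. E2-only peaks made up 31.9% of the E2 peaks in the lowest quartile of width (146 to 204 bp), 17.8% in the second, 7.55% in the third and 1.81% in the highest (480 to 3902 bp). Width bears on the rule itself, because a wider peak offers more bases to overlap, so these values are a description. In all, the E2-only peaks covered 0.951 Mb of the 10.7 Mb in the E2 list.

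**Figure D1:**
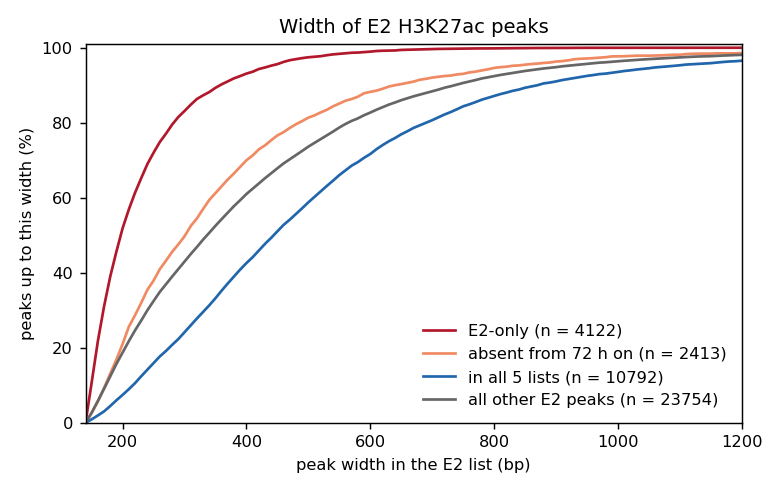
Cumulative share of E2 H3K27ac peaks (%) by peak width in bp, for E2-only peaks, peaks absent from 72 h on, peaks in all 5 lists and all other E2 peaks. The curve of the E2-only peaks rises first, with a median of 197 bp against 337 bp for all other E2 peaks.

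Peaks of a single list were not particular to E2. By the same rule applied to each list in turn, 4902 of 36845 peaks at 24 h were found in that list only (13.3%). The same held for 1325 of 28791 peaks in the 40 h list (4.60%), 1123 of 24930 in the 72 h list (4.50%) and 22529 of 48710 in the 120 h list (46.3%). The 24 h-only peaks resembled the E2-only peaks in number, in share and in median width, which was 197 bp for both. In the E2 list, absence at 24 h was the rarest: 25.4% of E2 peaks had no overlap with the 24 h list, 37.2% none with the 40 h list, 51.5% none with the 72 h list and 36.4% none with the 120 h list. Of the 7073 E2 peaks absent at 24 h, 58.3% (57.1 to 59.4) were absent from the other 3 lists as well.

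Absence from the lists was often a matter of a short distance. An E2-only peak lay a median of 1522 bp from the nearest peak of the 24 h list, 4082 bp from the 40 h list, 13174 bp from the 72 h list and 7192 bp from the 120 h list. Taking the nearest of these 4 lists, 2123 E2-only peaks (51.5%) had another peak within 1 kb and 1999 (48.5%) had none. The 1999 peaks without one are 7.17% of all E2 peaks, and all of them belong to the E2-only set by construction. Both kinds had nearly the same width, with medians of 198 bp where no other list had a peak within 1 kb and 196 bp where one had. Only 181 E2-only peaks (4.39%) lay over 50 kb from every peak of the 4 lists. At the edge of the rule, 110 E2-only peaks had another list's peak within 50 bp, 4 of them touching it without a shared base, and 22 other E2 peaks were left out of the set by an overlap of at most 10 bp. The name of the set as peaks not restored even early therefore stands only for the absence of a listed peak. Such absence holds for the exact sites in the rule's 4 lists, but not for 16 of them in the 56 h list. It holds for the surrounding kilobase in 1999 of 4122 cases. The lists hold called peaks only, and whether the mark was absent or under the calling threshold cannot be told apart. H3K27ac at the end of the shorter withdrawals, before E2 came back, was not analysed here, so a loss before the return was not measured. The 120 h list had no return of E2.

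**Figure D2:**
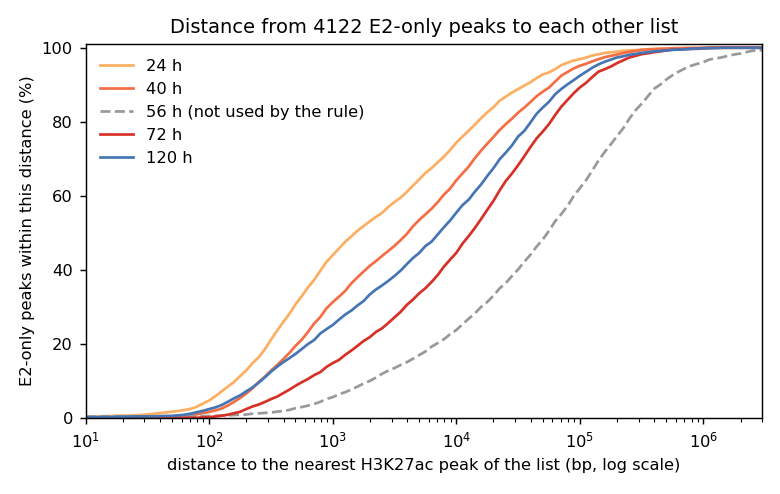
Cumulative share of the 4122 E2-only peaks (%) by distance to the nearest H3K27ac peak of each other list, in bp on a log axis, with 1 line per list. The 24 h line is highest over most distances, with a median of 1522 bp, and the line of the short 56 h list is lowest beyond 126 bp, with a median of 54603 bp.

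The 56 h list, made after 56 h without E2 and 64 h with it, offers a count that the rule did not use, although the rule bears on it. Of the E2-only peaks, 16 of 4122 were overlapped by a 56 h peak (0.388%, 0.222 to 0.630), against 416 of 2413 peaks present at 24 and 40 h only (17.2%), 1730 of 10792 peaks found in all 5 lists (16.0%) and 2803 of 23754 other E2 peaks (11.8%). Over all E2 peaks the share was 10.1%. The difference between E2-only peaks and all other E2 peaks was -11.4 points (-11.9 to -10.9), and the share was lower among E2-only peaks on 20 of 20 chromosomes. It was also lower in each width quartile, with 0.404, 0.242, 0.759 and 0% of E2-only peaks from narrow to wide, against 14.8, 12.8, 10.2 and 10.4% of other E2 peaks. The 0 of 126 in the widest quartile allows a share of up to 2.89%. The 56 h list was short, with 6356 peaks, which limits what it can show. E2-only peaks were also chosen as absent at 40 and 72 h, the withdrawals on either side of 56 h. The other E2 peaks were chosen as present in at least 1 list, so the choice favours a lower share for E2-only peaks. The widest of the 16 lay on chromosome 2 from 30944462 to 30944903 (mm9 build, as are all positions here). It was 442 bp wide, of which the 56 h list covered 314 bp, and its nearest peaks in the 120, 24, 40 and 72 h lists were 219, 284, 662 and 5703 bp away.

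H3K27me3 lay over few E2-only peaks, but over a larger share of them than of other E2 peaks in all 5 lists. In the E2 list of H3K27me3, 53 of 4122 E2-only peaks were overlapped by the mark (1.29%, 0.965 to 1.68), against 5 of 2413 peaks absent from 72 h on (0.207%) and 39 of 23754 other E2 peaks (0.164%, 0.117 to 0.224). All E2 peaks together gave 0.33%. At 24 h the counts were 55 E2-only peaks (1.33%) and 39 other E2 peaks (0.164%), with 0.337% over all E2 peaks. At 40 h they were 53 (1.29%) and 43 (0.181%), with 0.344% over all. At 72 h, 129 E2-only peaks were overlapped (3.13%, 2.62 to 3.71), against 134 other E2 peaks (0.564%), with 0.943% over all. At 120 h the numbers were 236 E2-only peaks (5.73%, 5.04 to 6.48) and 332 other E2 peaks (1.40%), with 2.04% over all.

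The differences between E2-only and other E2 peaks were 1.12 points in E2 (0.814 to 1.52), 1.17 points in the 24 h list (0.857 to 1.57) and 1.10 points in the 40 h list (0.797 to 1.50). They were 2.57 points in the 72 h list (2.07 to 3.15) and 4.33 points in the 120 h list (3.64 to 5.09). In the 24, 40, 72 and 120 h lists the rule bears on the difference. Other E2 peaks kept an H3K27ac peak in at least 1 of these conditions, and E2-only peaks in none. Against the 6026 other E2 peaks that were also absent from the 120 h H3K27ac list, the difference was 1.00 points in E2 (0.658 to 1.41). At 120 h it was 1.54 points (0.687 to 2.43), with 4.18% of those 6026 peaks overlapped. E2-only peaks had a higher share than all other E2 peaks on 17 of 20 chromosomes in E2, on 14 at 24 h, on 16 at 40 h and on 19 at both 72 and 120 h. Their share was lower on 2, 4, 2, 0 and 0 chromosomes, in that order. In E2 no chromosome held more than 7 E2-only peaks under the mark, so these counts rest on few peaks. The gap was present in each width quartile. In E2, from narrow to wide, 0.943, 1.05, 2.28 and 5.56% of E2-only peaks were overlapped, against 0.105, 0.157, 0.233 and 0.147% of other E2 peaks, and the widest quartile rests on 7 of 126 E2-only peaks. The H3K27me3 lists differed in length: the E2 list covered 5.47 Mb, the 24 h list 9.10 Mb, the 40 h list 6.08 Mb, the 72 h list 8.06 Mb and the 120 h list 12.9 Mb. The share over E2-only peaks was nearly the same in E2, at 24 and at 40 h, and highest in the 120 h list, which covered most. With the H3K27me3 lists cut to an equal number of peaks, the 120 h list overlapped 4.95% of E2-only peaks and 1.16% of other E2 peaks. The part of list length in these shares was not tested.

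**Figure D3:**
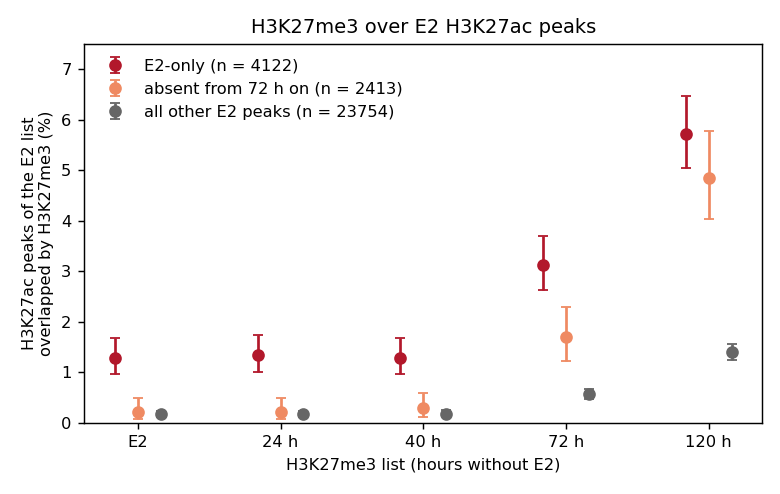
Share of H3K27ac peaks of the E2 list that each H3K27me3 list overlapped (%), by H3K27me3 list, for E2-only peaks, peaks absent from 72 h on and all other E2 peaks, with 95% Clopper-Pearson intervals. E2-only peaks are the highest of the 3 in all 5 lists, and at 120 h their interval overlaps that of the peaks absent from 72 h on.

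The comparison with E2 peaks absent from the 72 and 120 h lists only gave a difference in 4 of the 5 H3K27me3 lists. Against the 2413 peaks present at 24 and 40 h but absent at 72 and 120 h, the share of E2-only peaks under H3K27me3 was higher by 1.08 points in E2 (0.669 to 1.49), by 1.13 points in the 24 h list (0.713 to 1.54), by 0.996 in the 40 h list (0.565 to 1.42) and by 1.43 in the 72 h list (0.658 to 2.16). In the 24 and 40 h lists the choice of the peaks favours a difference. The 2413 peaks had an H3K27ac peak in those conditions, and the E2-only peaks had none. At 120 h the shares were 5.73% of E2-only peaks and 4.85% of these 2413 peaks, and the difference of 0.877 points had an interval that includes 0 (-0.270 to 1.97). It was -0.358 points (-2.03 to 1.18) when peaks within 1 kb were merged first, and 1.81 points (0.795 to 2.76) when overlap meant 50% of a peak.

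The share under H3K27me3 was also higher for E2-only peaks than for peaks found in 1 other list only, a comparison chosen after seeing the data. In the E2 list of H3K27me3, 1.29% of E2-only peaks were overlapped, against 3 of 4902 24 h-only peaks (0.0612%), 2 of 1325 40 h-only peaks (0.151%), 1 of 1123 72 h-only peaks (0.0890%) and 76 of 22529 120 h-only peaks (0.337%). In the 24 h list, which matches the 24 h-only peaks, the shares were 1.33% of E2-only peaks and 0.0816% of 24 h-only peaks, a difference of 1.25 points (0.919 to 1.65). At 120 h they were 5.73% of E2-only peaks and 0.715% of 120 h-only peaks, a difference of 5.01 points (4.33 to 5.77). In both lists the rule favours a difference. The 24 h-only or 120 h-only peaks carried H3K27ac there, and the E2-only peaks had no listed peak. Each set was also taken in the H3K27me3 list of its own condition. The shares were then 1.29% for E2-only, 0.0816% for 24 h-only, 0.0755% for 40 h-only, 0% for 72 h-only and 0.715% for 120 h-only peaks. E2-only peaks were higher than the peaks of each of the other 4 lists in every H3K27me3 list, with differences between 0.948 and 5.64 points and no interval reaching 0. Here too the rule favours a difference where the single list and the H3K27me3 list share a condition, so also at 40 and 72 h. The 24 h-only peaks, of the same median width, did not exceed the other peaks of the 24 h list in the H3K27me3 list of the same condition, with a difference of -0.0311 points (-0.0971 to 0.101). The 120 h-only peaks did in theirs, by 0.321 points (0.190 to 0.458).

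**Figure D4:**
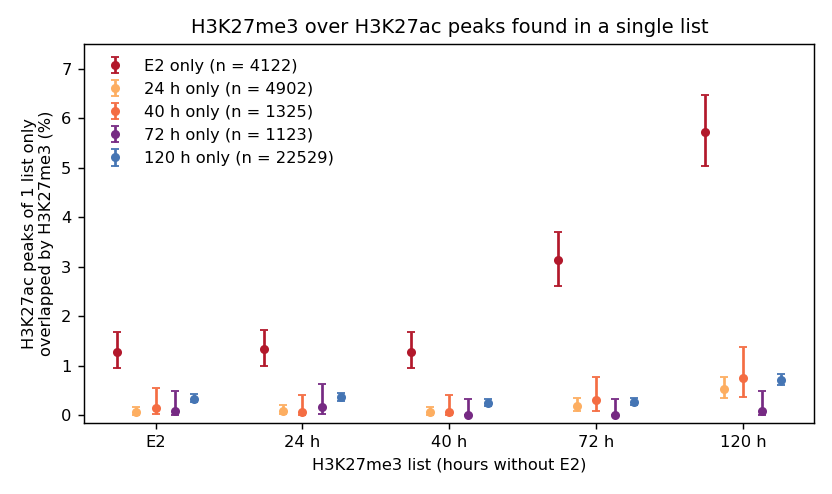
Share of the H3K27ac peaks found in a single list that each H3K27me3 list overlapped (%), by H3K27me3 list, with 95% Clopper-Pearson intervals and 1 colour per H3K27ac list. E2-only peaks lie at 1.29 to 5.73%, and the peaks of every other single list at or below 0.755%.

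Most E2-only peaks under H3K27me3 fell into a few patterns over the 5 lists. The lists come from separate conditions, so a pattern is not a course over time at a site. The mark was absent from all 5 lists at 3884 of the 4122 peaks (94.2%). It appeared at 120 h only at 104 peaks, at 72 and 120 h only at 64, and in all 5 lists at 38. As shares, the pattern with the mark at 120 h only held 2.52% of E2-only peaks, against 3.11% of peaks absent from 72 h on and 0.817% of all other E2 peaks. The pattern with it at 72 and 120 h only held 1.55% of E2-only peaks, against 1.37% of peaks absent from 72 h on and 0.345% of all other E2 peaks. The mark in all 5 lists was found at 0.922% of E2-only peaks, 0.166% of peaks absent from 72 h on and 0.109% of all other E2 peaks. Of the 53 peaks under H3K27me3 in E2, 52 were also under it at 120 h. The 39 other E2 peaks under it in E2 included 5 with it in no other list. Another 1 had it in E2 and at 24 h only, and 1 in E2 and at 72 h only. The rest of these 39 had it at 120 h too. Of the 184 E2-only peaks that were under it at 120 h but not in E2, 78 were under it at 72 h too, when E2 had been back for 48 h. Among other E2 peaks, 194 had it at 120 h only and 82 at 72 and 120 h only. The 53 peaks lay in 44 separate H3K27me3 domains of the E2 list, the 236 at 120 h lay in 188 domains, and no domain of the E2 list held more than 4 of them. The domain covered the whole peak at 33 of 53 peaks in E2 and at 185 of 236 at 120 h. For other E2 peaks the counts were 21 of 39 and 212 of 332.

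E2-only peaks under H3K27me3 stood farther from other H3K27ac. In E2, the 53 peaks had a median width of 244 bp and lay a median of 10960 bp from the nearest peak of the 24, 40, 72 and 120 h lists, against 197 bp and 878 bp for the 4069 without the mark. Among E2-only peaks with no other list's peak within 1 kb, 1.80% (1.26 to 2.48) were under H3K27me3 in E2 and 7.10% (6.02 to 8.32) at 120 h. Among those with such a peak the shares were 0.801% (0.467 to 1.28) and 4.43% (3.59 to 5.39). Taking 1 kb around the peaks as well, H3K27me3 was near 1.92, 2.43, 2.28, 4.27 and 7.64% of E2-only peaks in the 5 lists from E2 to 120 h. The same shares over all E2 peaks, in that order, were 0.761, 0.947, 0.915, 1.66 and 3.19%. Within 10 kb the shares of E2-only peaks were 5.82, 6.82, 6.57, 9.61 and 14.6%, against 2.84, 3.70, 3.25, 4.27 and 6.90% of other E2 peaks and 3.28, 4.16, 3.74, 5.06 and 8.05% of all E2 peaks.

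Named by width, the foremost E2-only peak under H3K27me3 in E2 lay on chromosome 19 from 58528657 to 58529577. H3K27me3 covered 279 of its 921 bp in E2 and all 921 bp in each of the 24, 40, 72 and 120 h lists, while the nearest H3K27ac peak at 24 h was 687 bp away. The peak on chromosome 11 from 57641067 to 57641710 was covered over its full 644 bp in all 5 lists and had no H3K27ac of the rule's 4 lists within 26224 bp. On chromosome 19 the peak from 55818156 to 55818791 was likewise covered over all 636 bp in all 5 lists. It belonged to the domain that held most E2-only peaks in E2, 4 of them, from 55814378 to 55820085. Of the 5 peaks named here, 2 were not overlapped by the mark in the 24 and 40 h lists. The peak on chromosome 6 from 87680717 to 87681368 was covered over 382 bp in E2 and over all 652 bp at 72 and 120 h. In the 24 and 40 h lists none of it was covered, but H3K27me3 lay 113 and 157 bp away. The peak on chromosome 16 from 58522842 to 58523441 was covered whole in E2 (600 bp), over 371 bp in the 72 h list and whole in the 120 h list. In the 24 and 40 h lists it was not covered, and the nearest H3K27me3 lay 78810 and 78885 bp away.

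Some E2-only peaks were under H3K27me3 only in the lists made after 72 or 120 h without E2. On chromosome 2 from 155454477 to 155455034, H3K27me3 covered none of the peak in the E2, 24 and 40 h lists and all 558 bp in the 72 and 120 h lists. On chromosome 8 from 123157596 to 123158153, it covered 244 bp in the 72 h list and 558 bp in the 120 h list. The peaks on chromosome 13 from 55588356 to 55588997 and on chromosome 5 from 141349003 to 141349594 were covered at 120 h only, over 623 of 642 bp and 575 of 592 bp. In the 72 h list H3K27me3 lay 682 and 405 bp from them. The peak on chromosome 11 from 118884897 to 118885517 was covered at 120 h only as well, over 49 of its 621 bp. H3K27me3 lay 1008, 738, 764 and 679 bp from this peak in the E2, 24, 40 and 72 h lists.

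Within the E2 list, single E2-only peaks stood somewhat apart. The nearest other E2 peak was a median of 962 bp away (864 to 1078), against 343 bp for peaks absent from 72 h on, 323 bp for peaks in all 5 lists and 360 bp (352 to 368) for all other E2 peaks. The distance was greater for E2-only peaks in each width quartile, with 1092, 879, 782 and 511 bp from narrow to wide, against 409, 348, 348 and 350 bp for other E2 peaks. When E2 peaks within 1 kb were merged first, the order turned round: 8083 bp for E2-only regions, against 13875 bp for other E2 regions. Of the E2-only peaks, 936 (22.7%) lay over 10 kb from any other E2 peak, against 19.6% of all E2 peaks, and 278 (6.74%, 6.00 to 7.55) lay over 50 kb away, against 6.56% of all. To the nearest E2 peak outside the set, E2-only peaks had a median distance of 2952 bp. It exceeded 10 kb for 32.6% of them and 50 kb for 10.8%, against 23.7% and 8.33% of all E2 peaks.

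The E2-only peaks were spread over all chromosomes. They made up between 11.2% of the E2 peaks on chromosome 3 and 18.2% on chromosome X. In runs along the E2 list, 2252 stood alone between other E2 peaks, 1058 came in pairs and the others in runs of up to 7 without another E2 peak between them. The run of 7 spanned 146913 bp of chromosome 11, from 116980487 to 117127399.

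Clusters were formed by chaining E2-only peaks within 10 kb of each other. This gave 213 clusters of 3 or more peaks, which held 780 E2-only peaks (18.9%), while 2418 peaks stood alone. In 99 clusters (46.5%) every E2 peak belonged to the set. No peak of the 24 h list lay in the span of 75 clusters, none of the 120 h list in 145, and none of any of the rule's 4 lists in 69 (32.4%). The choice of the peaks favours spans without peaks of these lists. Single peaks included, the 4122 E2-only peaks formed 3093 chains, and the 23754 other E2 peaks formed 11252 by the same distance. Clusters of 3 or more among other E2 peaks were not counted. These counts therefore do not show whether E2-only peaks cluster more.

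Both clusters with most E2-only peaks held 10, but their surroundings differed. The first, on chromosome 2 from 179926757 to 179965616, held 11 E2 peaks, 10 of them E2-only with widths of 151 to 311 bp. In its 38860 bp, H3K27ac covered 2638 bp in E2, 413 bp in the 24 h list, 559 bp in the 40 h list and nothing in the 56, 72 and 120 h lists. H3K27me3 covered nothing in the E2, 24 and 40 h lists, 1768 bp in the 72 h list and 2366 bp in the 120 h list, and it overlapped 3 of the 10 E2-only peaks at 72 and at 120 h. The second, on chromosome 4 from 134609556 to 134642298, held 16 E2 peaks, of which 6 had counterparts in other lists. H3K27ac there covered 4859 bp in E2, 2167 bp in the 24 h list, 1377 bp in the 40 h list, nothing in the 56 h list, 1529 bp in the 72 h list and 1570 bp in the 120 h list. No H3K27me3 lay within 455185 bp in any list.

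**Figure D5:**
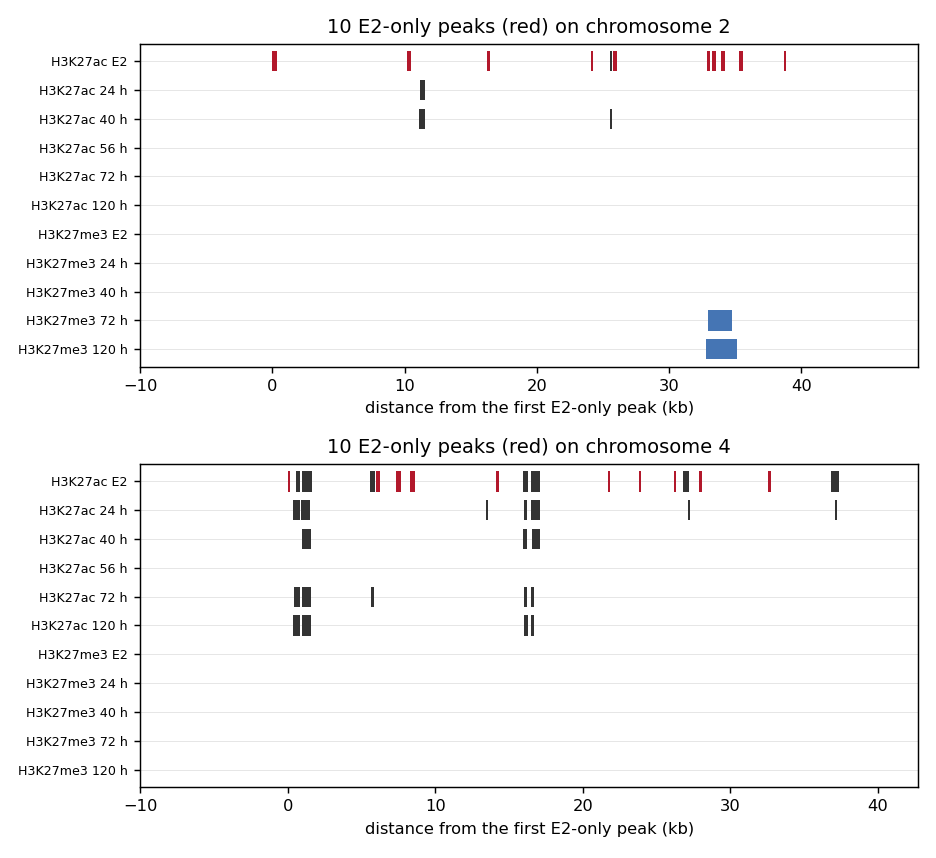
Peaks of the 6 H3K27ac and 5 H3K27me3 lists around both clusters of 10 E2-only peaks, by distance in kb from the first of these peaks, with E2-only peaks in red, other H3K27ac peaks in black and H3K27me3 in blue. In the chromosome 2 cluster no H3K27ac peak is listed from 56 h on and H3K27me3 is listed at 72 and 120 h, whereas in the chromosome 4 cluster H3K27ac peaks of other lists lie between the E2-only peaks and there is no H3K27me3.

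Another 4 clusters held 7 E2-only peaks each, and none had H3K27me3 in its span in any list. On chromosome 12 from 113828006 to 113845865, H3K27ac covered 3933 bp in E2, 859 bp in the 24 h list, 734 bp in the 40 h list and nothing in the 72 and 120 h lists. On chromosome 4 from 137040596 to 137067322 the lengths were 4846 bp in E2, 1940 bp in the 24 h list, 165 bp in the 40 h list and again nothing in the 72 and 120 h lists. On chromosome X from 11704049 to 11715581 they were 5735 bp in E2, 1512 bp in the 24 h list, 612 bp in the 40 h list, none in the 72 h list and 1488 bp in the 120 h list. On chromosome 15 from 84116077 to 84140979, where 10 of 17 E2 peaks were outside the set, they were 5756 bp in E2, 3564 bp in the 24 h list, 2793 bp in the 40 h list, 146 bp in the 56 h list, 882 bp in the 72 h list and 2348 bp in the 120 h list. In all 6 clusters of 7 or more the covered length was lower at 24 h than in E2 and lower still at 72 h, which the choice of the peaks favours.

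Of the 10 widest E2-only peaks, 5 had a peak of the 24, 40, 72 or 120 h list within 1 kb. The widest, on chromosome 5 from 125638338 to 125639484, had its nearest peaks 16610 bp away in the 24 h list, 16683 bp in the 40 h list, 19449 bp in the 72 h list and 16660 bp in the 120 h list. The third widest, on chromosome 15 from 27677424 to 27678322, had a 24 h peak 213 bp away and a 40 h peak 248 bp away, but none within 22203 bp at 72 and 120 h. On the same chromosome, the peak from 8229414 to 8230213 lay 109960 bp from any other E2 peak and at least 109966 bp from any H3K27ac peak of the rule's 4 lists. Of these 10 peaks, only the one on chromosome 19 described above was under H3K27me3 in any list.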

How the data were processed

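The series held 30 samples, and 11 were used: 6 H3K27ac and 5 H3K27me3 ChIPs of ER-Hoxa9-Lys-GFP cells, grouped by title. The deposited files give the chromosome, start and end of each peak and no score, so their unit was taken as other. Per the labels' protocols 500 ug of chromatin was used. BWA, Bowtie2 2.0 and MACS2 2.0, with the builds mm10 and mm9, are named in the submitters' processing notes. Which aligner and build belong to which list, the threshold, the use of inputs and the read depth are not given in the sources used here. Peaks reached past the last GRCm38 gene on 9 chromosomes for H3K27ac and 6 for H3K27me3, and these lists were treated as mm9. The build of the H3K4me3, V5 and AM lists was not checked here and they were not compared, and with no mm9 genome or annotation no gene or sequence is given.

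All peaks lay on chromosomes 1 to 19 or X and entered the counts. Overlap meant 1 shared bp. Distances are the bases between peak edges. Python 3.11.15, numpy 2.4.6, pandas 2.3.3 and scipy 1.17.1 were used, and the overlap and distance functions were tested on simulated data. Alternatives were another overlap, merging, lists of equal length, width limits, width quartiles, chromosome X left out and each list left out. Regions named are the 10 widest E2-only peaks, the 5 clusters with most (6, as the fifth place was tied), the 5 farthest from any E2 peak, and the 5 widest at 56 h, under H3K27me3 in E2, and under it at 120 h but not in E2, with examples given. The E2-only set and the measures were chosen with earlier results of these data known.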

Additional observations from a re-analysis of the deposited data

How the results depend on the processing

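No paired analysis was possible because each condition had 1 library. Read depth is unknown. The number of E2-only peaks was 2540 with the E2 peak extended by 500 bp, 2258 with peaks within 1 kb merged and 653 above the median width, and between 4033 and 5925 under the other alternatives, 5925 being without the 120 h list. Their median width was 211 bp with 50% of a peak as the overlap, 204 bp merged, 231 bp with lists of equal length and 383 bp above the median width, always below that of other E2 peaks. Their median distance to the nearest other E2 peak was 802 bp with 50% of a peak as the overlap, 3166 bp extended, 852 bp with equal lengths, 730 bp above the median width, 1092, 782 and 511 bp in width quartiles 1, 3 and 4, and 8083 bp merged, where other E2 regions were farther at 13875 bp. Chaining within 50 kb gave 398 clusters. All 14 alternatives kept the 56 h share lower than in other E2 peaks. All 95 combinations of an alternative and an H3K27me3 list kept the H3K27me3 share higher with an interval above 0. They include chains of peaks within 10 kb counted as 1 unit, which was chosen after seeing the data (1.39% of 3093 chains of E2-only peaks against 0.329% of other chains in E2). Also chosen after seeing the data was the limit to E2-only peaks with no other list's peak within 1 kb. Its difference in E2 was 1.64 points. Against peaks absent from 72 h on, the H3K27me3 difference at 120 h was 1.81 points with 50% of a peak as the overlap, with an interval above 0, and -0.358 points merged, both computed after seeing the data. The cause was not tested.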

Other observations

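The nearest E2 peak outside the set was absent at 120 h for 44.2% of E2-only peaks and for 24.1% of other E2 peaks, and absent at 24 h for 13.6% and 12.3%. The lists that define the set also define these states, so the shares are a description. The E2-only peak farthest from any other E2 peak lay on chromosome 4 from 104391634 to 104391935, 1404728 bp from the next, but with a 72 h peak at 5848 bp. The peak on chromosome 7 from 81699639 to 81699785 lay 901096 bp from the next E2 peak and 37 bp from a 120 h H3K27ac peak. H3K27me3 covered all 147 bp of it at 72 and 120 h and 0 bp in E2, where the nearest lay 734 bp away. The H3K27me3 domain with most E2-only peaks at 120 h, on chromosome 2 from 84723373 to 84729954, held 5 of them and 2 other E2 peaks. In E2 the domain there, from 84727349 to 84728462, held 3 and 0.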
